A study of Homo sapiens with 16 samples.

Results

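The transcriptional response to AU-15330 was compared between POU2F3-subtype small cell lung cancer (SCLC-P) and multiple myeloma cells. For each gene, the effect of AU-15330 was the mean log2(value + 0.5) after AU-15330 minus that after DMSO within a line. The difference of response was the mean effect in the SCLC-P lines minus the mean effect in the myeloma lines. A positive difference therefore marks a gene that ended higher, relative to DMSO, in SCLC-P than in myeloma, whether it rose in the first or fell in the second. The comparison used the 11059 genes, of 35606 in the deposited table, whose mean scaled value was at least 1 in each of the 4 lines. That mean was taken over both arms, so a gene could pass in a line through 1 arm alone. Among the genes nearest to that limit were ZNF595 inside it, with a mean of 1.00 in MM1.S and 82.3 in NCI-H1048, and FUT1 outside it, with a mean of 0.998 in NCI-H929 and 9.52 in NCI-H1048.

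Mammalian SWI/SNF (mSWI/SNF) complexes use the ATPases SMARCA2 and SMARCA4 to slide or evict nucleosomes, which keeps enhancers open for transcription factors. SCLC-P cells resemble tuft cells and depend on POU2F3, which binds octamer DNA with its coactivators POU2AF2 and POU2AF3. Myeloma cells are malignant plasma cells that depend on IRF4 and on the B cell coactivator POU2AF1, and they secrete large amounts of immunoglobulin. MYC, a driver of ribosome production, nucleotide synthesis and entry into S phase, is commonly deregulated in myeloma.

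RNA was sequenced from NCI-H526 and NCI-H1048 (SCLC-P) and from NCI-H929 and MM1.S (multiple myeloma), which are established human cell lines. Each line was treated with 1 µM AU-15330, a proteolysis targeting chimera that degrades SMARCA2, SMARCA4 and PBRM1, or with vehicle (DMSO); 2 libraries were made of every treatment in each line, 16 in total. The sample titles give 24 h, whereas the treatment text gives 12 to 24 h and the design text 4 to 12 h, so the duration is uncertain from the labels. For RNA sequencing of the SCLC-P lines, the study's figure legends give both 12 h and 24 h. Every line is a single culture model, and each class is represented by 2 lines, so the differences below describe these 4 lines. Ribosomal RNA was depleted for MM1.S, whereas mRNA was selected by poly(A) for NCI-H526, NCI-H1048 and NCI-H929. Effects were therefore taken within a line, and library chemistry cannot be told apart from the line MM1.S. Nothing in the labels says that the libraries of an arm came from separate cultures. The study describes biological replicates for RNA sequencing of the SCLC-P lines in the legend that gives 12 h. The spread behind the p-values is that between libraries, which may be technical.

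Estimated depth ranged from 12.0 to 43.0 M reads per library and was lowest in NCI-H929. The 9 tuft markers summed to between 1412 and 2890 scaled units in DMSO-treated SCLC-P libraries and to between 10.7 and 17.5 in DMSO-treated myeloma libraries, and the 9 plasma cell markers summed to between 9043 and 23538 in myeloma and between 136 and 204 in SCLC-P. The labels of the 4 lines thus matched their defining markers. Markers of fibroblasts, endothelial, T and myeloid cells summed to 207 or less in every line, with PECAM1 at 148 in DMSO-treated NCI-H929 as the highest. Summed scaled values fell by 14.3% in NCI-H929 and by 15.1% in MM1.S after AU-15330 and changed by -3.04% in NCI-H526 and 0.473% in NCI-H1048. In bulk RNA, fewer cells of a kind and less RNA per cell cannot be told apart.

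The responses of the SCLC-P and myeloma lines differed for most of the genes compared. With limma and Benjamini-Hochberg adjustment over the 11059 genes (threshold 0.05), 8414 genes (76.1%) had a difference of response, 4585 (41.5%) positive and 3829 (34.6%) negative. The median difference over all genes was 0.05, with quartiles of -0.46 and 0.58, and the median standard error was 0.09. Because so many genes passed, a stricter description was used beside it. A gene is called separated where each of the 4 differences between an SCLC-P line and a myeloma line passed the test in the same direction. Of all genes, 4472 (40.4%) were separated, 2741 (24.8%) upward and 1731 (15.7%) downward.

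The balance between positive and negative differences depended on scaling. The positive share of the called genes was 54.5% on the deposited values. It was 47.2% after median-ratio rescaling, 49.7% after quantile normalization and 41.4% after scaling every library to the same total, which gave 3577 positive and 5071 negative genes. Scaling to the same total shifted the median difference of all genes by -0.20 and median-ratio rescaling shifted it by -0.11, so differences near 0 carry no direction here.

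Most of the difference came from the myeloma lines. Among the genes compared, 2760 (25%) changed at least 2-fold in NCI-H929 and 2478 (22.4%) in MM1.S, against 394 (3.56%) in NCI-H526 and 237 (2.14%) in NCI-H1048. The shares called by limma, at any size, were 38.2% higher and 39.7% lower in NCI-H929, 33.5% higher and 42.9% lower in MM1.S, 22.6% higher and 19.1% lower in NCI-H526, and 23.4% higher and 18% lower in NCI-H1048. The contrast in size was not limited to low genes: at a line mean of at least 50, the 2-fold shares were 21.5%, 19.9%, 1.77% and 1.33% in NCI-H929, MM1.S, NCI-H526 and NCI-H1048. Of the 2741 genes separated upward, 2572 (93.8%) fell in both myeloma lines and 398 (14.5%) rose in both SCLC-P lines. Of the 1731 genes separated downward, 1597 (92.3%) rose in both myeloma lines and 263 (15.2%) fell in both SCLC-P lines.

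Genes expressed in a line but not in all 4, which include POU2F3 and IRF4, were left out, and among those the 2-fold share was 21.6% of 2626 genes in NCI-H526 (17.7% lower), 14.5% of 2632 in NCI-H1048 (12.3% lower), 43.1% of 2056 in NCI-H929 and 30.3% of 2779 in MM1.S. The small SCLC-P effects above therefore describe the shared genes and not the whole response of these lines.

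**Figure D1:**
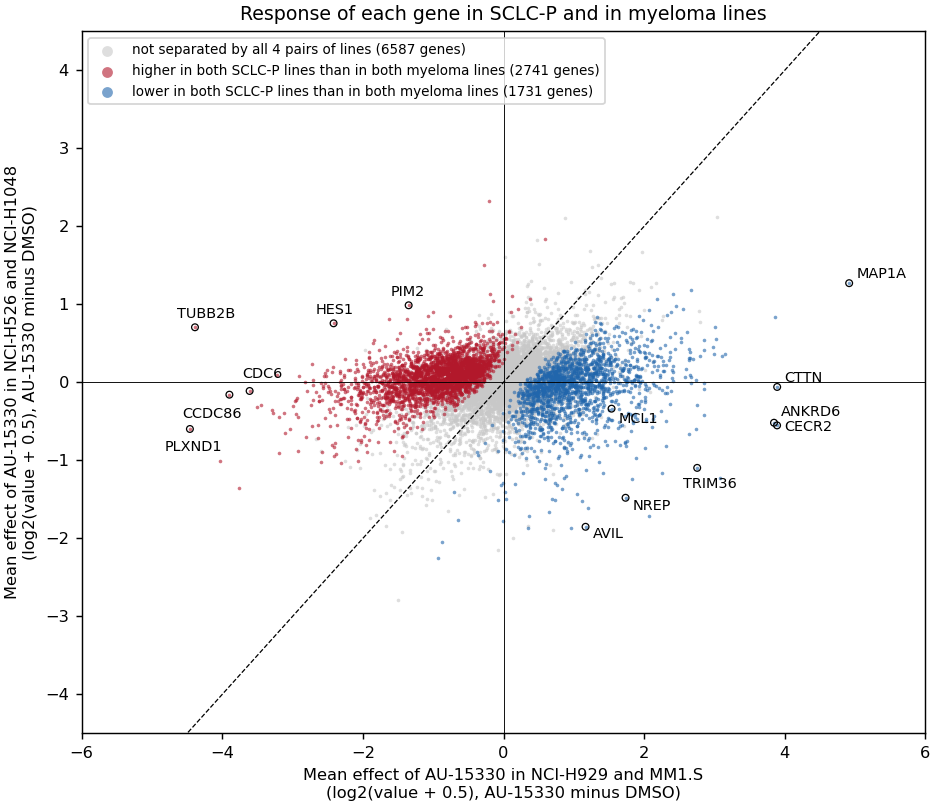
Each point is a gene; the x axis is its mean effect in NCI-H929 and MM1.S and the y axis its mean effect in NCI-H526 and NCI-H1048, both as AU-15330 minus DMSO on the log2(value + 0.5) scale, with equal effects on the dashed line. The 2741 red and 1731 blue genes were separated by all 4 pairs of lines, and the cloud is wider along the myeloma axis than along the SCLC-P axis.

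The lines of a class were not interchangeable. The effects of NCI-H526 and NCI-H1048 differed for 2892 genes (26.2%), and those of NCI-H929 and MM1.S for 5319 (48.1%). Across the genes, which are not independent replicates, Spearman's rho between effects was 0.41 for the SCLC-P lines, 0.75 for the myeloma lines and 0.09 to 0.19 for the 4 pairs of lines from different classes. A line pair from 1 class shares its tissue of origin, and in myeloma the pair differs in library chemistry as well.

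Genes of ribosome production differed almost without exception. Of the 60 tested genes of ribosome biogenesis and RNA polymerase I, 59 had a positive difference and none a negative one, 57 were separated, and the median difference was 1.45 against 0.05 over all genes. In NCI-H929 and MM1.S, 59 genes each fell, with medians of -1.52 and -1.72. In NCI-H526, 18 rose and 3 fell (median 0.13), whereas in NCI-H1048, 2 rose and 43 fell (median -0.41), so the SCLC-P lines themselves differed in direction. UBTF, the architectural factor of ribosomal DNA, was the only member without a call (0.12 ± 0.10, adjusted p = 0.3). All 6 RNA polymerase I subunits tested (POLR1A, POLR1B, POLR1C, POLR1E, POLR1F and POLR1G) had positive differences, with a median of 1.41, and were separated.

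NOLC1, a nucleolar chaperone of small nucleolar ribonucleoproteins (chr10:102152176-102163871; coordinates are GRCh38, GENCODE release 44), shows the pattern by library. Its scaled values were 542 and 560.1 with DMSO and 97.5 and 101 with AU-15330 in NCI-H929. In MM1.S they were 334 and 342 with DMSO and 45.7 and 49.5 with AU-15330. In NCI-H526 they were 333 and 337 with DMSO and 279 and 283 with AU-15330, and in NCI-H1048 184 and 190.0 and 101 and 106. NOLC1 was thus lower in both AU-15330 libraries than in both DMSO libraries of every line, and the fall was larger in myeloma (difference 2.09 ± 0.05, adjusted p = 3.9e-14). LYAR, a nucleolar regulator of ribosomal RNA genes, had the highest difference of the list at 2.61 ± 0.08 (adjusted p = 2.5e-13). The box C/D particle core protein NOP56 had 1.85 and the large-subunit assembly factor EBNA1BP2 2.03. EBNA1BP2 rose by 0.19 in NCI-H526, had -0.02 in NCI-H1048 (not called) and fell in NCI-H929 (-1.98) and MM1.S (-1.91).

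A MYC-type E-box, CACGTG on either strand, stood in the promoter window (250 bases before to 50 after the start, RefSeq, GRCh38.p14) of 20 of the 51 matched genes of this list (39.2%), against 7.43% of all 27305 promoters and 10.6% of the 8865 tested genes that matched. Its share was 12.6% of 2313 matched genes separated upward and 9.88% of 1366 separated downward. The E-box stood in 7 of 30 windows of nucleotide and polyamine genes (23.3%), 4 of 43 of replication genes (9.30%), 3 of 35 of proteasome genes (8.57%) and 1 of 19 of aminoacyl-tRNA synthetases (5.26%), lists that also fell in myeloma. EBNA1BP2 had one of the smallest adjusted p-values in the list among genes whose window holds it. Its window is printed below in lower case with the E-box in capitals, since it shows where these letters stand in a gene that fell in both myeloma lines. It lies at chr1:43172521-43172820 on the minus strand.
EBNA1BP2: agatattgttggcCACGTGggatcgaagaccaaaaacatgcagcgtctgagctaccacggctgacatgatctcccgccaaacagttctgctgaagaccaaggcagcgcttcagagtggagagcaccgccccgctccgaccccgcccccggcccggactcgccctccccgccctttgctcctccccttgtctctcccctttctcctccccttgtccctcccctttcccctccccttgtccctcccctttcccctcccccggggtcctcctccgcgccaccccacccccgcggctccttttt
The letters describe the window only, and binding was not measured in these files.

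Other parts of the protein synthesis machinery moved in the same direction. Of the 63 cytosolic ribosomal proteins tested, 62 had positive differences (median 0.68) and 57 were separated. They fell for 52 genes in NCI-H929 and 62 in MM1.S, and rose for 20 in NCI-H526 and 30 in NCI-H1048, with medians of -0.33, -0.68, 0.14 and 0.19. The falls were modest and pseudoalignment can split reads among their near-identical copies, so single genes such as RPL35 (1.02) are uncertain. The number separated was 37 after scaling to the same total and 15 after quantile normalization, where the median difference was 0.35. After quantile normalization the median in NCI-H929 was 0, so the direction of this list in that line depended on scaling. All 23 aminoacyl-tRNA synthetases tested had positive differences (median 1.02, 22 separated), led by FARSB, the beta subunit for phenylalanine, at 2.34 ± 0.07. FARSB rose in NCI-H526 (0.37) and fell in NCI-H1048 (-0.23), NCI-H929 (-2.01) and MM1.S (-2.52). Among 42 translation factors, 36 had positive differences, with EIF5A, the hypusinated elongation factor, at 2.02 and the helicase EIF4A1 at 1.86.

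DNA replication genes had the highest median of all lists. All 50 tested replication and E2F genes had positive differences, 48 were separated, and the median was 1.88. All 50 fell in NCI-H929 (median -2.14) and in MM1.S (-1.47). In the SCLC-P lines the medians were near 0, at -0.04 in NCI-H526, where 8 rose and 11 fell, and 0.14 in NCI-H1048, where 16 rose and 3 fell. The replicative helicase subunits MCM2 to MCM7 had differences from 1.52 (MCM7) to 2.68 (MCM4), and the 7 DNA polymerase and primase subunits from 0.81 (POLE) to 1.83 (POLE2).

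CDC6 (chr17:40287879-40304657), which loads the helicase on origins, is a clear case. Its scaled values were 145 and 153 with DMSO and 6.17 and 7.36 with AU-15330 in NCI-H929. In MM1.S they were 93.9 and 101 with DMSO and 12.9 and 13 with AU-15330. In NCI-H526 CDC6 measured 114 and 114 with DMSO and 95.8 and 96.1 with AU-15330, and in NCI-H1048 76.9 and 84.2 and 79.2 and 84.4. The arms did not overlap in the myeloma lines or in NCI-H526 and overlapped in NCI-H1048. The difference was 3.50 ± 0.08 (adjusted p = 1.2e-14), the highest of the list. MCM10 (3.32 ± 0.12) and CDC45 (2.99 ± 0.08), both origin-firing factors, and UHRF1 (2.94 ± 0.11), which maintains DNA methylation at replication forks, were also among the 12 highest separated genes.

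RRM2 (chr2:10120698-10211725), the regulated subunit of ribonucleotide reductase, showed how much the myeloma lines varied. It measured 731 and 727 with DMSO and 51.6 and 51.4 with AU-15330 in NCI-H929, and 762 and 809 and 322 and 313 in MM1.S. In NCI-H526 the values were 358 and 365 and 334 and 354, and in NCI-H1048 283 and 287 and 336 and 337. The effect was -3.81 in NCI-H929 and -1.30 in MM1.S, while RRM2 rose in NCI-H1048 (0.24), and its difference was 2.64 ± 0.05. The nucleotide and polyamine list as a whole had 33 positive and 2 negative differences among 36 genes (median 1.26), led by the CTP synthase CTPS1 (2.68 ± 0.06), thymidylate synthase TYMS (2.62) and the purine enzyme PAICS (1.98). The negative members were OAZ2, an antizyme, and SAT1, which acetylates polyamines for export (-1.46). Both act against polyamine accumulation.

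The E2F motif TTCCCGC, on either strand, stood in the windows of 19 of 43 matched replication genes (44.2%), against 6.56% of all promoters and 10.8% of matched tested genes. The list was drawn up as replication and E2F genes, so its share partly reflects that choice. The motif stood in 14.4% of 2313 matched genes separated upward and 7.69% of 1366 separated downward. It stood in 6 of 35 proteasome windows (17.1%), 5 of 30 of nucleotide and polyamine genes (16.7%), 3 of 51 of ribosome biogenesis genes (5.88%) and 1 of 19 of aminoacyl-tRNA synthetases (5.26%). CLSPN, the checkpoint adaptor claspin (difference 2.44 ± 0.07, adjusted p = 1.5e-13), had one of the smallest adjusted p-values among them. Its window is shown because the match, here on the opposite strand and so read as GCGGGAA in capitals, lies close to the annotated start. It lies at chr1:35769929-35770228 on the minus strand.
CLSPN: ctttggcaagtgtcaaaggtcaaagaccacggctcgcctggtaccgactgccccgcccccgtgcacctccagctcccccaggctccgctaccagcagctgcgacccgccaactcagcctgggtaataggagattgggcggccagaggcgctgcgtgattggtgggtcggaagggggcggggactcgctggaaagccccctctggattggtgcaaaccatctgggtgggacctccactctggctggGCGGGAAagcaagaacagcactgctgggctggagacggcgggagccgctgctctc
The match begins at base 246 of the 300-base window.

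Mitotic genes had unlike medians in the myeloma lines. Of 50 mitosis and kinetochore genes, 49 had positive differences (median 1.09) but only 29 were separated. In NCI-H929, 49 fell (median -1.41), while in MM1.S 31 fell and 7 rose (median -0.29). The MM1.S median was -0.17 after median-ratio rescaling, -0.11 after quantile normalization and -0.05 after scaling to the same total, so the size of that fall depended on scaling. The number separated was 18 after scaling to the same total and 20 after either of the others. In NCI-H1048, 42 of the 50 rose (median 0.37), and in NCI-H526 12 rose and 6 fell. CCNA2, the S and G2 cyclin, rose in NCI-H526 (0.19) and NCI-H1048 (0.32) and fell in NCI-H929 (-1.92) and MM1.S (-0.60). The kinetochore protein ZWINT had the same pattern, with a difference of 1.95 ± 0.08.

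The G1 regulators differed gene by gene. CDK2 fell in both myeloma lines (-2.02 in NCI-H929 and -1.81 in MM1.S) with 0.06 and 0.06 in NCI-H526 and NCI-H1048, not called. CDK4 fell in NCI-H929 (-1.23) and MM1.S (-1.24). The CDK inhibitor CDKN1B rose in all 4 lines and more in myeloma (difference -1.05 ± 0.06), as did CCNG2, an atypical cyclin of arrested cells (-1.56 ± 0.08). The CDK inhibitor CDKN1A went the other way, with effects of -1.98 in NCI-H929, -2.63 in MM1.S and -1.37 in NCI-H1048. Its effect in NCI-H526 was also negative and smaller in size. Over the 16 tested genes of that list, 10 differences were positive and 5 negative.

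**Figure D2:**
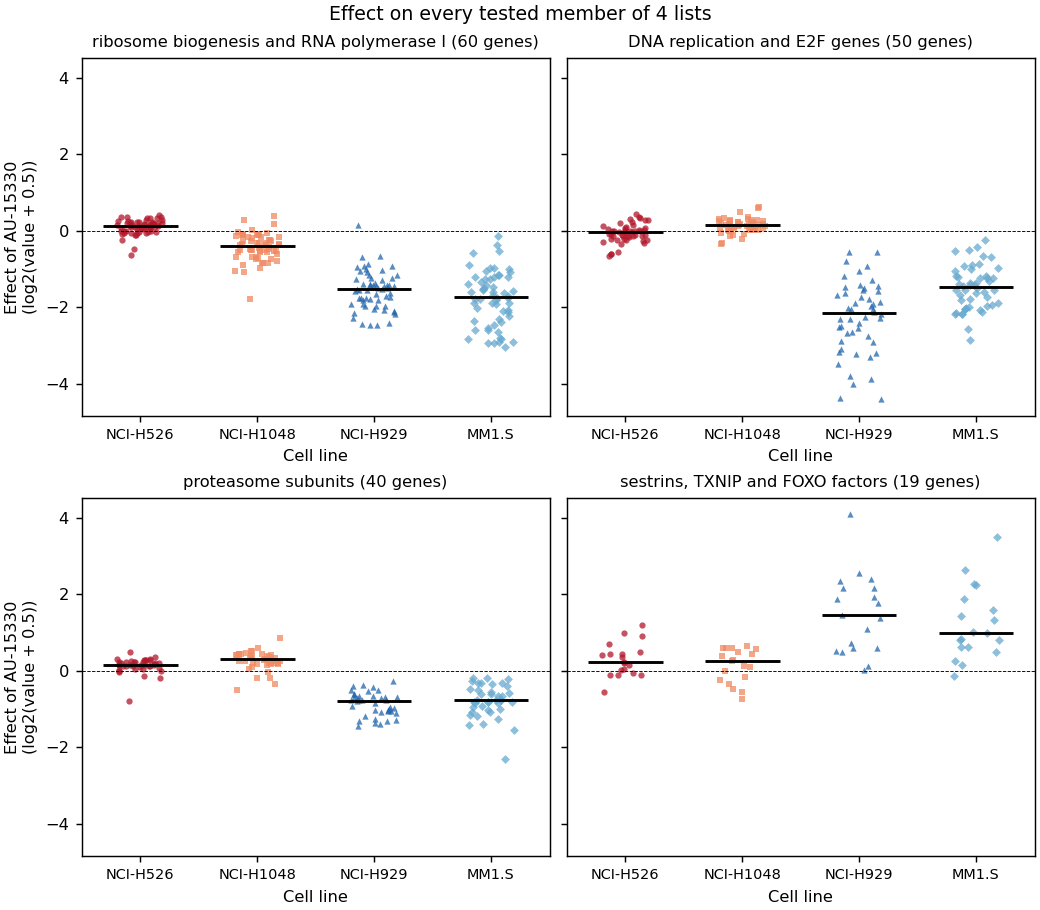
Effect of AU-15330 on every tested member of 4 lists in each cell line, on the log2(value + 0.5) scale; each point is a gene and the black line the median. Ribosome biogenesis medians were -1.52 and -1.72 in NCI-H929 and MM1.S, replication medians -2.14 and -1.47, and proteasome subunits lay above 0 for most genes in the SCLC-P lines and below 0 for all in the myeloma lines.

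Proteasome subunits formed the list with the most opposite responses. A gene is called opposite where it passed the test upward in both lines of a class and downward in both lines of the other. Over all genes, 272 (2.46%) rose in both SCLC-P lines and fell in both myeloma lines, and 166 (1.5%) did the reverse. The upward count was sensitive to single libraries of the SCLC-P lines: it was 122 and 137 without DMSO replicate 1 or 2 of NCI-H526, 103 without its AU-15330 replicate 2, and 150 without DMSO replicate 1 of NCI-H1048. Of the 40 proteasome genes tested, all had positive differences, all were separated (median 1.04), and 17 were opposite. All 40 fell in NCI-H929 and in MM1.S, with medians of -0.78 and -0.77. In NCI-H526, 17 rose and 1 fell (median 0.16), and in NCI-H1048, 29 rose and 3 fell (median 0.30). Under scaling to the same total the 4 medians were -0.56, -0.53, 0.20 and 0.29 in NCI-H929, MM1.S, NCI-H526 and NCI-H1048, all 40 differences stayed positive and 35 were separated.

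Both parts of the particle were affected. The 14 subunits of the 20S core, which holds the proteolytic sites, had a median difference of 1.09, and the 19 subunits of the 19S regulator, which unfolds ubiquitinated proteins, had 0.94. PSMD14 (chr2:161308425-161411717), the deubiquitinase of the 19S lid, measured 126 and 129 with DMSO and 147 and 170.0 with AU-15330 in NCI-H526, and 132 and 148 and 166 and 171 in NCI-H1048. It measured 154 and 160.3 with DMSO and 64.2 and 67.5 with AU-15330 in NCI-H929, and 137 and 145 and 64.3 and 62.2 in MM1.S. The treated libraries were thus the higher ones in both SCLC-P lines and the lower ones in both myeloma lines (difference 1.49 ± 0.07, adjusted p = 2.6e-11). PSME1, a subunit of the interferon-inducible activator, went against the list in SCLC-P, with -0.79 in NCI-H526 and -0.49 in NCI-H1048.

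Nuclear genes of the respiratory chain behaved similarly with smaller effects. Of 54 tested, 49 had positive differences (median 0.67), 42 were separated and 12 were opposite. They fell for 43 genes in NCI-H929 and 47 in MM1.S and rose for 24 in NCI-H526 and 34 in NCI-H1048. The ATP synthase subunit ATP5MC1 had the highest difference (1.96 ± 0.07), and the complex II subunit SDHC was the only one with a negative call (-0.29). The 13 transcripts of the mitochondrial genome had 4 positive and 1 negative difference with a median of 0.08, near that of all genes, and under scaling to the same total they had 1 positive and 6 negative.

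**Figure D3:**
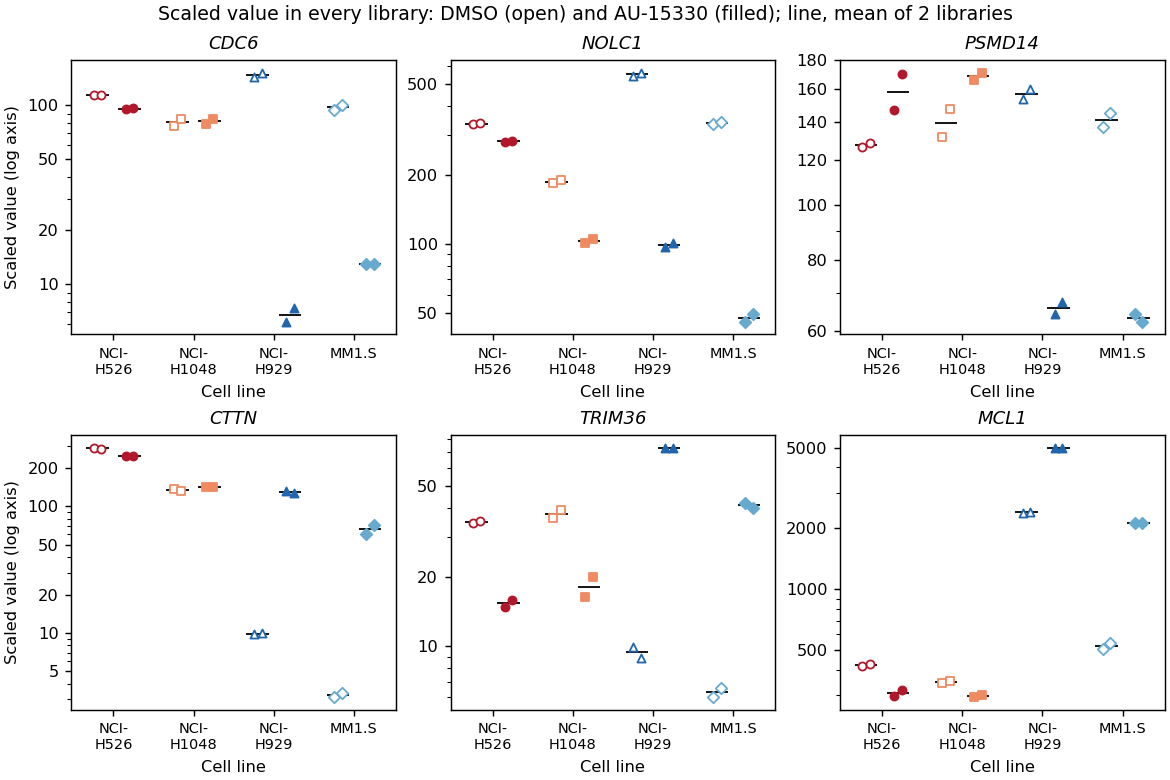
Scaled value on a log axis in all 16 libraries for 6 genes; open symbols are DMSO, filled symbols AU-15330, and the black lines the mean of 2 libraries. CDC6 and NOLC1 fell most in NCI-H929 and MM1.S, PSMD14 and TRIM36 moved in opposite directions in the classes, CTTN rose from 9.86 and 10.0 to 132 and 127 in NCI-H929, and MCL1 rose in myeloma and fell in SCLC-P.

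The secretory programme fell in myeloma with exceptions at its head. Of 46 genes of endoplasmic reticulum folding and the unfolded protein response, 39 had positive differences (median 0.97) and 35 were separated, with medians of -1.04 in NCI-H929, -1.01 in MM1.S, -0.13 in NCI-H526 and 0.06 in NCI-H1048. SEC24D, a cargo adaptor of COPII vesicles, was opposite (0.56 in NCI-H526, 0.70 in NCI-H1048, -1.61 in NCI-H929 and -1.35 in MM1.S). The translocon subunits SSR3 (1.83) and SEC61A1 (1.64) and the disulfide isomerase PDIA4 (1.41) followed. The other called genes were all separated downward, namely DERL3, EIF2AK3, ERO1B, SEL1L and XBP1.

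XBP1 (chr22:28794555-28800597), the transcription factor of plasma cell secretion, measured 2717 and 2787 with DMSO and 4283 and 4346 with AU-15330 in NCI-H929, and 1023 and 1052 and 2692 and 2733 in MM1.S. In NCI-H526 it measured 93.1 and 93.7 and 64.9 and 74.4, and in NCI-H1048 64.6 and 69.1 and 46.7 and 44.7. XBP1 rose in both myeloma lines and fell in both SCLC-P lines, without overlap between arms in any line (difference -1.50 ± 0.06, adjusted p = 4.6e-12). The values are gene totals, so the spliced and unspliced forms of XBP1 were not told apart.

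Lineage factors are mostly outside the comparison, because a factor of 1 class is near 0 in the other. POU2F3 measured 1280.2 and 1287 with DMSO and 247 and 242 with AU-15330 in NCI-H526 and 600.0 and 534 and 35.5 and 33.1 in NCI-H1048, and stayed below 1 in every myeloma library. IRF4 measured 1834 and 1835 and 274 and 278 in NCI-H929 and 1456 and 1551 and 1219.9 and 1238 in MM1.S, and stayed below 2 in every SCLC-P library. These levels are given without a test. The MYC genes are also line-specific: MYC measured 299.8 and 317 and 39.4 and 38.2 in NCI-H929, 527 and 532 and 15.4 and 14.9 in MM1.S and 189 and 177 and 41.3 and 36.4 in NCI-H1048, with the DMSO pair first each time. In NCI-H526 MYC was below 1 in every library, whereas MYCN measured 1622 and 1658 with DMSO and 1231 and 1283 with AU-15330. MYC was thus lower in both treated libraries of the 3 lines that express it. Of the 60 ribosome biogenesis genes, 43 or more fell in each of those lines and 3 in NCI-H526, and the part of MYC or MYCN in that was not tested.

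Among lineage genes that did pass the filter, the coactivator POU2AF1 (chr11:111352255-111455630) fell in both myeloma lines, from 613 and 585 to 141 and 146 in NCI-H929 and from 442 and 452 to 93 and 91.3 in MM1.S. Its levels in SCLC-P were low, at 4.94 and 3.83 with DMSO and 2.73 and 2.60 with AU-15330 in NCI-H526 and 9.46 and 9.62 and 11.7 and 8.49 in NCI-H1048. The difference was 1.89 ± 0.12 (adjusted p = 4.8e-10) and was separated. AVIL, the actin-binding tuft cell marker advillin, went the other way (-3.02 ± 0.14, opposite): it fell from 794 and 796 to 397 and 413 in NCI-H526 and from 104 and 99.3 to 14.8 and 14.9 in NCI-H1048. In MM1.S AVIL rose from 10.7 and 10.8 to 29.2 and 27.6, and in NCI-H929 it stayed below 3. With a DMSO mean of 0.944 in NCI-H929, AVIL passed the filter there only through the treated arm. PLCG2, the phospholipase of tuft cell and B cell signalling, was also opposite (-1.68 ± 0.06). Of 40 listed tuft genes only 6 were tested, of which 5 had negative differences, none a positive one, and 2 were separated. In NCI-H526, 5 of them fell and 1 rose, and in NCI-H1048, 3 fell and 3 rose (median -0.10). In each myeloma line 5 rose, so these members do not describe the tuft programme as a whole. Of 14 plasma cell genes, 8 were positive and 3 negative (median 0.21), and of 21 genes linked to IRF4 in myeloma 16 were positive and 5 negative (median 0.99). The lean of the plasma cell list depended on scaling, with 5 positive and 4 negative genes under each other scaling. Its median was 0.09 after median-ratio rescaling, 0.04 after quantile normalization and -0.0008 after scaling to the same total. SDC1 (CD138) fell in all 4 lines and more in myeloma (1.02 ± 0.05).

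PIM2 (chrX:48913182-48919024), a serine/threonine kinase highly expressed in myeloma, was the only plasma cell gene opposite in the upward direction. It measured 1411 and 1403 with DMSO and 383 and 383 with AU-15330 in NCI-H929, and 878 and 901 and 502 and 503 in MM1.S. In NCI-H526 PIM2 rose from 44.2 and 46.5 to 129.5 and 139.9, and in NCI-H1048 from 13.4 and 13.8 to 19.4 and 17.2. The arms did not overlap in any line, and the difference was 2.34 ± 0.06 (adjusted p = 5.4e-14). DEPTOR, an inhibitor of mTOR, was opposite in the same direction (2.44 ± 0.10), as were E2F8 (2.37), the centromere protein CENPM (2.24), SHCBP1 (2.24), CGN (2.18), ERCC6L (2.15) and CKAP4 (2.11). HES1, a Notch target, was opposite at low levels (3.17 ± 0.18), with 0.703 and 0.849 against 1.63 and 1.22 in NCI-H526 and 8.20 and 8.57 against 0.143 and 0.451 in NCI-H929.

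**Figure D4:**
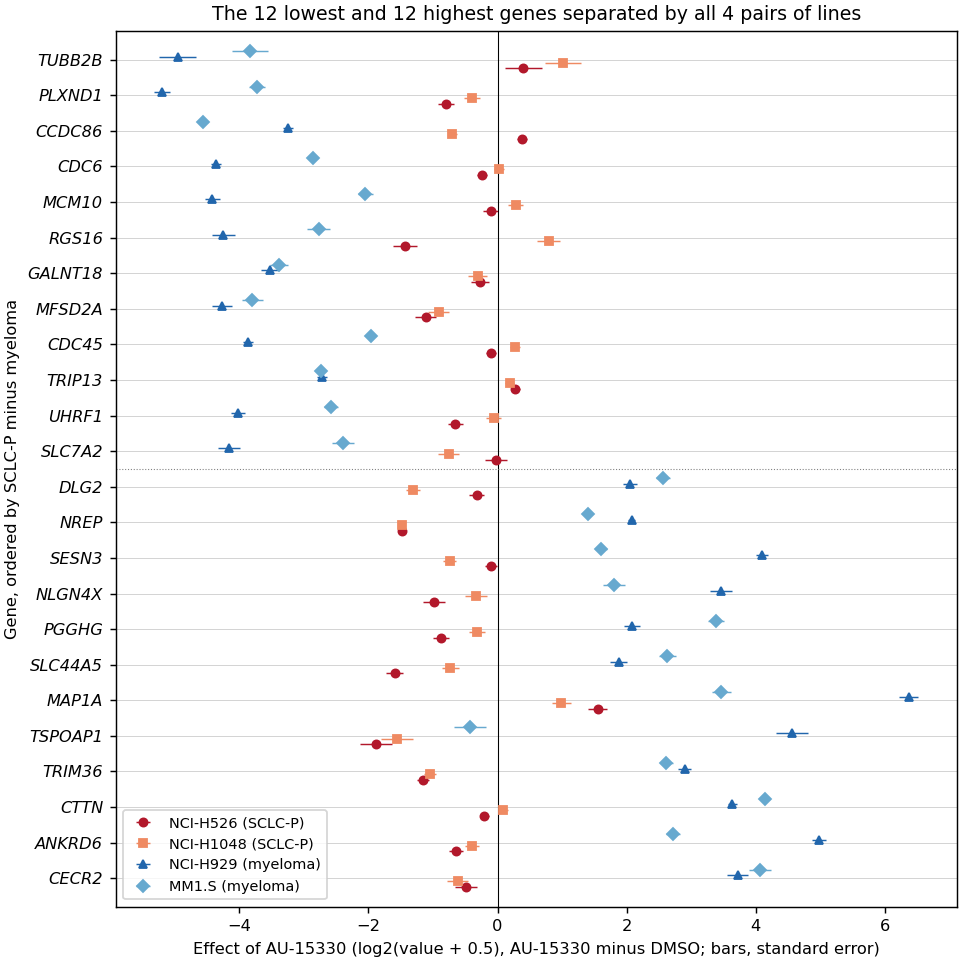
Effect of AU-15330 with its standard error in each line for the 12 highest and the 12 lowest separated genes with a mean of at least 10 over the 16 libraries, on the log2(value + 0.5) scale. The myeloma symbols lie far from 0 for nearly every gene, and TRIM36, NREP, SLC44A5, DLG2, ANKRD6 and CECR2 were called opposite by the test in each line.

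The genes with the lowest differences rose in myeloma, many from low levels. The filter used the mean over both arms of a line. MAP1A, TSPOAP1 and CECR2 had DMSO means of 0.236, 0.626 and 0.739 in NCI-H929 and passed there only through the treated arm. A gene that low with DMSO was kept only if it rose, so such rises are partly set by the filter. CTTN (chr11:70398404-70436584), which encodes the actin-binding protein cortactin, measured 9.86 and 10.0 with DMSO and 132 and 127 with AU-15330 in NCI-H929, and 3.13 and 3.4 and 60.9 and 71.8 in MM1.S. In NCI-H526 it measured 290.4 and 285 and 248 and 250.3, and in NCI-H1048 136 and 132 and 143 and 142. The treated NCI-H929 libraries thus came close to the level of NCI-H1048, those of MM1.S stayed below it, and the difference was -3.95 ± 0.07 (adjusted p = 9.6e-16). CECR2 (-4.44 ± 0.17), a bromodomain partner of ISWI remodelers, rose from 0.586 and 0.893 to 16 and 15.3 in NCI-H929 and from 1.73 and 2.86 to 44.8 and 45.8 in MM1.S and fell in both SCLC-P lines. For such low values the added 0.5 understates the change.

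TRIM36 (chr5:115124762-115180546), a ubiquitin ligase, was opposite, from lower DMSO levels in myeloma than in SCLC-P. It fell from 34.5 and 35 to 14.9 and 15.9 in NCI-H526 and from 36.4 and 39.2 to 16.3 and 20.1 in NCI-H1048. It rose from 9.95 and 8.93 to 73.3 and 73.4 in NCI-H929 and from 6.01 and 6.61 to 42.2 and 40.1 in MM1.S, so arms were apart in every line (difference -3.85 ± 0.10, adjusted p = 3.9e-14). NREP, a regulator of neuronal regeneration, fell by 1.48 in each SCLC-P line and rose by 2.07 and 1.40 in NCI-H929 and MM1.S (-3.22 ± 0.06). The synaptic and neuronal genes DLG2 (-3.12 ± 0.11), GRIK2 (-3.07 ± 0.24) and MAP2 (-1.77 ± 0.10) were opposite in the same direction. TSPOAP1 (-3.79 ± 0.24) rose in 1 myeloma line, with 4.56 there and -0.43 in MM1.S, and MAP1A (-3.64 ± 0.15) rose in all 4 lines. The neuronal list as a whole was balanced, with 7 positive and 7 negative differences among 15 genes.

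At the other end, PLXND1, a semaphorin receptor (3.86 ± 0.12), fell from 62.3 and 61.3 to 1.00 and 1.43 in NCI-H929 and from 8.75 and 8.64 to 0.198 and 0.191 in MM1.S. CCDC86, a nucleolar protein (chr11:60842113-60851081), fell from 232 and 224 to 9.59 and 8.89 in MM1.S and from 149 and 169 to 16.6 and 16.1 in NCI-H929, rose from 62 and 64.2 to 80.1 and 84.5 in NCI-H526 and fell from 31.6 and 30.1 to 19.1 and 18.6 in NCI-H1048. Its difference was 3.74 ± 0.07 (adjusted p = 1.9e-15). TUBB2B had the highest difference (5.09 ± 0.29), but TUBB2A is a near-identical copy and the treated NCI-H929 libraries held 0.212 and 0, so its size is uncertain.

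Growth-arrest and nutrient-response genes formed the clearest group in the negative direction. Of 19 tested sestrin, TXNIP and FOXO-linked genes, 16 had negative differences and 2 positive ones, 12 were separated, and the median was -1.02. They rose for 17 genes in NCI-H929 and 17 in MM1.S (medians 1.46 and 0.98), and 10 also rose in each SCLC-P line (0.23 and 0.25), so the difference was mostly of size. SESN3 (chr11:95165513-95232541), a sestrin that restrains mTORC1, measured 10.7 and 11.9 with DMSO and 205 and 197 with AU-15330 in NCI-H929, and 73.3 and 80.5 and 232 and 236 in MM1.S. In NCI-H1048 SESN3 fell from 46.3 and 46.6 to 24 and 31.7, and in NCI-H526 the arms were 113 and 118 with DMSO and 103 and 112 with AU-15330 (-3.27 ± 0.10). TSC22D3 (GILZ), a glucocorticoid- and FOXO-responsive factor, rose in all 4 lines and more in myeloma (-2.44 ± 0.08), and KLHL24 had -2.45 ± 0.09. SESN1 had -1.85 and KLF9 -1.97. ARRDC3 (0.39) and CITED2 (0.28) went the other way.

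The forkhead core GTAAACA, on either strand, was in 3 of 19 windows of this list (15.8%), against 3.41% of all promoters and 2.14% of matched tested genes, which is too few windows to describe further. YPEL3 (difference -1.19 ± 0.09) is one of the matching genes.

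Stress and survival genes differed one by one. MCL1 (chr1:150560895-150579738), the anti-apoptotic BCL2 protein on which myeloma depends, measured 2377 and 2417 with DMSO and 4999 and 4972 with AU-15330 in NCI-H929, and 509 and 542 and 2131 and 2119.6 in MM1.S. In NCI-H526 it measured 418 and 428 and 299 and 321, and in NCI-H1048 344 and 352 and 294 and 299.7. MCL1 was opposite, with arms apart in every line (difference -1.87 ± 0.05, adjusted p = 1.5e-13). The BH3-only genes BCL2L11 (BIM, -1.88 ± 0.06) and BBC3 (PUMA, -2.21 ± 0.15) rose in both myeloma lines and not in both SCLC-P lines, whereas the BH3-only gene PMAIP1 (NOXA) had the highest difference of the list (1.63). Over the 25 apoptosis genes tested, 11 differences were positive and 10 negative. DDIT4, a stress-induced inhibitor of mTORC1, was opposite (-2.58 ± 0.11): it fell in NCI-H526 (-0.68) and NCI-H1048 (-1.64) and rose in NCI-H929 (1.15) and MM1.S (1.67). Among 28 p53 targets 8 were positive and 12 negative, led by TP53I3 (-2.64 ± 0.10). CDKN1A, which encodes p21, was the highest p53 target (1.27), with effects of -1.98 in NCI-H929, -2.63 in MM1.S and -1.37 in NCI-H1048 and a smaller negative one in NCI-H526.

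Signalling feedback genes leaned toward negative differences, with list medians above 0 in myeloma. Of 17 ERK feedback regulators, 12 had negative and 3 positive differences (median -0.89). The median effects were 0.50 in NCI-H929, 0.49 in MM1.S and -0.26 in NCI-H526 and in NCI-H1048. The phosphatases DUSP4 (-2.38 ± 0.16, opposite) and DUSP16 (-1.48 ± 0.09) had negative differences. DUSP2 had a positive one (1.93), with effects of -2.51 in NCI-H929 and -2.78 in MM1.S. Of 20 AP-1 and immediate early factors, 14 were negative and 4 positive (median -0.48), including NR4A1 (-2.06 ± 0.10, opposite) and JUNB (-1.30 ± 0.08). The median effects of that list were 0.32 in NCI-H929, 0.84 in MM1.S, 0.09 in NCI-H526 and 0.08 in NCI-H1048. Of 21 adhesion and matrix genes, 13 were negative and 6 positive (median -0.57), including the integrin ITGB8 (-1.82 ± 0.11, opposite) and the laminin chain LAMC1 (-1.38 ± 0.07).

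Interferon-stimulated genes had 20 negative and 2 positive differences among 33 tested (median -0.39), and the myeloma lines were not alike: 20 rose and 3 fell in NCI-H929. In MM1.S, 11 rose and 15 fell, close to the shares of all genes there (33.5% and 42.9%), and the median of -0.17 was 0.06 after scaling to the same total. In NCI-H526, 18 fell and 1 rose (median -0.37), and in NCI-H1048, 11 fell and 4 rose (median -0.09). Over all genes, 19.1% fell in NCI-H526 and 18% in NCI-H1048. The RNA sensor RIGI was opposite (-2.33 ± 0.09), as was PARP14 (-1.99 ± 0.08). IRF1 rested on a single line, with -1.94 in NCI-H526, and its difference was 0.0044 without that line. The interferon-induced GTPase MX1 went the other way (1.30).

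Metabolic lists had more positive than negative differences, where 41.5% of all genes were positive and 34.6% negative. Of 37 sterol and fatty acid genes, 28 were positive and 6 negative (median 0.65), with the efflux transporter ABCG1 lowest (-1.16). Of 35 glycolysis and hypoxia genes, 20 were positive and 9 negative (median 0.45). The hexokinase HK2 (2.29 ± 0.09) fell in NCI-H1048 (-1.66) as well as in NCI-H929 (-3.01) and MM1.S (-3.38), while PFKFB4, which makes an activator of glycolysis, had the lowest difference (-1.49). Of 31 ATF4 and amino acid response genes, 21 were positive and 7 negative. The positive ones included the serine synthesis enzyme PSAT1 (1.47 ± 0.06) and the serine hydroxymethyltransferase SHMT2 (1.57 ± 0.06). After scaling to the same total, 17 glycolysis and hypoxia genes were positive and 12 negative (median 0.25). Under that scaling the sterol list had 26 positive and 9 negative genes, and the ATF4 list 18 and 8.

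The transcripts of the remodeling complex itself differed little. The degrader acts on protein, so mRNA of its targets does not check degradation. The differences were 0.23 ± 0.06 for SMARCA2 (adjusted p = 0.0021), -0.12 ± 0.10 for SMARCA4 (adjusted p = 0.28) and -0.24 ± 0.08 for PBRM1 (adjusted p = 0.0095). Of 18 canonical BAF subunits, 4 were positive and 9 negative with a median of -0.13, and the actin-related subunit ACTL6A stood apart (1.31 ± 0.07), falling in NCI-H929 (-1.15) and MM1.S (-1.21). Of 7 PBAF and GBAF subunits, 3 were positive and 4 negative, with BRD9, the GBAF bromodomain subunit, separated upward (0.64 ± 0.08). Among 37 other remodelers and Polycomb genes, 13 were positive and 13 negative, from CHD3 (-2.12) to HELLS (1.90). Of 10 genes of the MYC and MAX network, 4 were positive and 4 negative, and the MAX-binding repressor MXI1 was opposite (-1.11 ± 0.07).

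Most transcripts of replication-dependent histones lack a poly(A) tail, so library chemistry and line cannot be told apart for them. Their median effect was 0.82 in NCI-H929 (poly(A)) and -0.80 in MM1.S (ribosomal RNA depletion), and 13 differences were positive and 10 negative among 26 genes tested.

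Some genes with large differences were called but not separated. SELENOP (-2.21 ± 0.17) rose in NCI-H526 (1.01) and fell in NCI-H1048 (-1.26), and PLD1 (-2.02 ± 0.12) and the catenin CTNNA2 (-1.98 ± 0.11) did the same. WDR46 (2.39 ± 0.53) measured 5.53 and 20.7 in the DMSO libraries of NCI-H929, a spread that leaves its value poorly defined. GTF2H4 (1.68 ± 0.48) measured 11.1 and 1.51 in the treated libraries of that line. COL27A1 (-2.08 ± 0.20) fell in both SCLC-P lines with no called change in NCI-H929 or MM1.S, while LPXN (1.73 ± 0.15) and PACSIN1 (1.71 ± 0.14) rested largely on MM1.S.

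**Figure D5:**
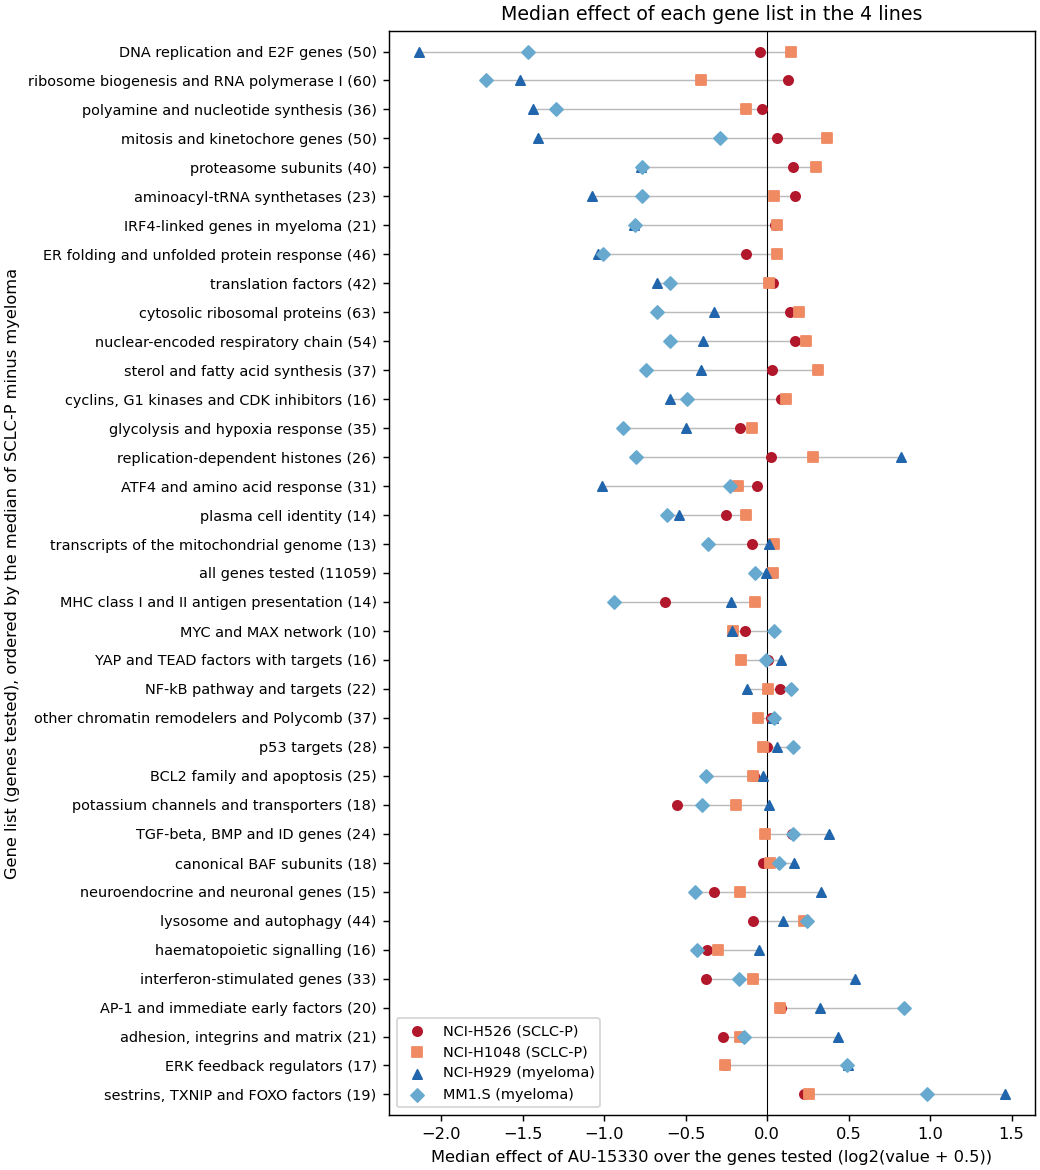
Median effect of AU-15330 on the log2(value + 0.5) scale in each line for every list with at least 10 tested genes, ordered by the median difference of response, with the number of genes tested in parentheses. Replication, ribosome biogenesis, nucleotide synthesis, mitosis and proteasome lists stand at the top with myeloma symbols below 0, the sestrin and FOXO list at the bottom with myeloma symbols above 0, and the row of all genes tested near 0 in each line.

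Treating the lines rather than the libraries as the unit gave fewer calls. With the 4 line effects in limma, 2 against 2, 881 of the 11059 genes were positive and 520 negative. Of these 1401 genes, 1398 were also separated. Both calls use the same 4 line effects, so this overlap is not separate evidence. With lines as the unit, 31 of 60 ribosome biogenesis genes, 36 of 50 replication genes and 21 of 40 proteasome genes were positive. In the sestrin and FOXO list 7 of 19 genes were negative, and none of these lists had a call in the other direction. Among other lists, 1 of 63 cytosolic ribosomal proteins and 3 of 50 mitosis genes were positive, shares below that of all genes. The positive counts were 8 of 23 aminoacyl-tRNA synthetases, 12 of 54 respiratory chain genes and 11 of 42 translation factors. They were 15 of 46 endoplasmic reticulum genes, with 2 negative, and 21 of 36 nucleotide and polyamine genes, with 1 negative.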

How the data were processed

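RNA sequencing libraries of 4 cell lines were compared, 2 per line and arm. The authors deposited 1 table of scaled signal per gene and library. Per the submitters' processing notes, FastQC, kallisto, edgeR and limma were used with genome build hg38; reads were pseudoaligned to transcripts with kallisto. The table is named as CPM, but library totals ranged from 0.829 to 1.19 M, so the deposited values were treated as scaled signal and not as CPM. Whole reads could not be recovered: among values of at most 20 steps, 74.8 to 80.1% lay within 0.1 of a whole number. Depth estimated from the steps was 12.0 to 43.0 M reads, which limits low genes most in NCI-H929.

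Values were analysed as log2(value + 0.5), and a fold change on this scale understates the change of low genes. Genes with a mean of at least 1 in each of 4 lines were kept. limma 3.58.1 (R 4.3.3) fitted the 8 groups of line and arm without a replicate block, with Benjamini-Hochberg adjustment and a threshold of 0.05, two-sided. Tables were made with Python 3.11.15 and pandas 2.3.3. The code was tested on simulated data. The members and the 39 gene lists (1337 genes, 1330 in the table, 1022 tested) were chosen with earlier results of these data known. Of the identifiers, 35444 matched an annotated gene and 162 did not, and 27 symbols had been turned into dates.

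Named genes were the 12 highest and 12 lowest separated genes with a mean of at least 10, genes of the study, up to 4 per list by smallest adjusted p, 8 opposite genes in each direction, and the 4 highest and 4 lowest called but not separated genes. Members outside that rule were named after their values were seen, among them list extremes, exceptions and polymerase subunits. Alternatives were other scalings, pseudocounts and filters, limma-voom on rebuilt counts, a replicate block, lines as the unit, a minimum size, and leaving out each library or line.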

Additional observations from a re-analysis of the deposited data

Results flagged for a closer look

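The effect of AU-15330 differed between the SCLC-P and the myeloma lines for 4585 genes in the positive and 3829 in the negative direction, by the limma test of the difference itself. Opposite responses were found for 272 genes that rose in both SCLC-P lines and fell in both myeloma lines and for 166 genes that did the reverse.

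Among the most different genes, some also differed between the SCLC-P lines, by the limma test of the effect in NCI-H526 minus that in NCI-H1048. The difference was 3.70 for CTNNA2 (adjusted p = 6e-10), 2.44 for PLD1 (adjusted p = 1.6e-07) and 2.27 for SELENOP (adjusted p = 6.5e-06), each of which rose in NCI-H526 and fell in NCI-H1048. It was 1.08 for CCDC86 (adjusted p = 2.1e-06) and -2.22 for RGS16, a regulator of G protein signalling (adjusted p = 1.7e-05).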

How the results depend on the processing

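The counts of 4585 positive and 3829 negative genes were 881 and 520 with lines as the unit and 1347 and 1040 at a difference of at least 1 in size; without the filter 6063 were negative. Separated genes numbered 1257 upward and 870 downward at that size, 2603 downward after scaling to the same total and 2944 downward without MM1.S, where fewer pairs of lines had to pass. Genes opposite upward numbered 167 after median-ratio rescaling, 671 without NCI-H526, 793 without NCI-H1048 and 140 at that size, and genes opposite downward 291 without MM1.S, 340 without NCI-H526 and 497 without NCI-H1048. Leaving out 1 library gave 4443 to 4633 positive, 3663 to 3874 negative, 2528 to 2817 separated upward, 1550 to 1789 separated downward, 103 to 296 opposite upward and 123 to 188 opposite downward genes. With limma-voom on rebuilt counts, 4542 were positive and 3789 negative.

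Same-numbered libraries did not deviate together in every line (correlations 0.03, 0.28, 0.00 and -0.20 in NCI-H526, NCI-H1048, NCI-H929 and MM1.S), so the numbers were not taken as pairs. With the replicate block, 4606 genes were positive and 3857 negative, 2726 and 1743 separated, and 265 and 169 opposite. With the block and the MM1.S numbers crossed, chosen after seeing the data, they were 4661 and 3928, 2800 and 1812, and 307 and 184.

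Some differences changed sign, and not all of them were small. On the main settings ARID1A had 0.064 and SMARCD1 0.066, neither called. Larger differences that were called but not separated also changed sign when a single line was left out. Their main values were 1.38 for IKBKE, 1.08 for CIITA, -1.02 for IRF1 and -1.29 for H2BC5. ARID1A was -0.052 after median-ratio rescaling, -0.24 after quantile normalization and -0.15 after scaling to the same total. SMARCD1 was -0.050, -0.12 and -0.14 under the same scalings, -0.32 without MM1.S and -0.069 without NCI-H1048. Without MM1.S, SMARCA4 was 0.0080, SS18 0.024, IKBKE -0.13, CIITA -0.12, WWC1 -0.12 and MT-CO3 -0.083, and MT-CO3 was -0.034 after scaling to the same total. Without NCI-H526, IRF1 was 0.0044 and ERAP2 0.21, and without NCI-H929, H2BC5 was 0.044. The causes were not tested.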

Other observations

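Other lists had medians between -0.29 and 0.05, against 0.05 over all genes. Among 44 lysosome and autophagy genes, 11 differences were positive and 20 negative (median -0.19), from the glucosidase GAA (-1.15) to the galactosidase GLA (1.07). Among 22 genes of the NF-kB pathway, 9 were positive and 8 negative (median -0.02), with the ubiquitin ligase BIRC3 lowest (-1.33). Among 24 genes of TGF-beta and BMP signalling, 7 were positive and 11 negative (median -0.10), and among 16 genes of YAP and TEAD signalling, 7 were positive and 7 negative (median -0.02), with TEAD4 highest (2.55) and YAP1 lowest (-1.55). Of 14 antigen presentation genes, 4 were positive and 4 negative (median 0.05). Of 18 potassium channels and transporters, 6 were positive and 9 negative (median -0.10), with the channel subunit KCNMB4 lowest (-2.55). Of 16 haematopoietic signalling genes, 6 were positive and 10 negative (median -0.29), and CORO1A, an actin regulator of leukocytes, was highest (2.53).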
